A study of Gallus gallus with 15 samples.

Results

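The mitochondrial ribosomal protein genes were taken as the rows of the read-count table whose symbol starts with MRPL or MRPS followed by a digit. There were 74 such genes among 24154 gene rows, and 74 of the 74 passed the filter on low counts. RNA was sequenced from livers of broiler breeder hens, which lay the eggs that meat chickens hatch from, in 15 libraries at 65 weeks of age. In 10 libraries the hens had received metformin, a glucose-lowering drug, at 75 mg per kg of body weight over 40 weeks from 25 weeks of age. The other 5 libraries came from control hens on 0 mg per kg, kept to the same age. Each treatment had 45 hens. The labels leave unsaid whether libraries are separate hens, and if they are not, the p-values describe only the variation among these libraries.

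Mitochondria hold their own ribosome, which makes a small set of membrane proteins encoded by mitochondrial DNA, core subunits of the respiratory chain and ATP synthase. Its proteins are encoded in the nucleus, made on cytosolic ribosomes and imported. The large subunit joins amino acids and the small subunit reads the mRNA. Many of their proteins descend from bacterial ribosomal proteins, while others have no counterpart in bacterial ribosomes. Liver is rich in mitochondria and relies on this ribosome for oxidative phosphorylation. Symbols do not always give the subunit: the products of MRPS30 and MRPS18A sit in the large subunit, and MRPS36 is now known as a part of the oxoglutarate dehydrogenase complex. With these assignments 48 of the 74 genes belonged to the large subunit, 25 to the small subunit and 1, MRPS36, to neither.

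The libraries were of 3 kinds by the share of reads that fell in no gene. This share was 37.0 to 43.5% in metformin 1, 3 and 4 and 27.8 to 36.3% in the 5 controls, which together form the middle set. It was 14.6 to 17.5% in metformin 2 and 5, the low set, and 51.5 to 55.1% in metformin 6 to 10, the high set. Reads in genes numbered 8023809 to 41041301 per metformin library, with the most in the low set and the fewest in the high set, and 21435678 to 26494240 per control. The low and the high set hold no control, so metformin and library set cannot be told apart there. Results are therefore given with all libraries in the fit and again with the set as a covariate (set-adjusted), where the metformin term rests on metformin 1, 3 and 4 against the controls. The 8 hepatocyte markers, of which 1 was called lower and 0 higher, moved with the sets. Their sum was 27882 to 57098 CPM in the middle metformin libraries, 76899 to 94475 CPM in the low set and 62992 to 106320 CPM in the high set, against 52888 to 78414 CPM in controls, so that the libraries behind the set-adjusted values reached the lowest sums. In the 7 lists of markers of other liver and blood cells, 0 to 2 genes per list were called lower and 0 to 1 higher, and 0 of the markers in the table lacked reads in every library. The marker calls are from the fit of all libraries, where 5.73% of all genes tested were called lower and 12.5% higher. Sums of other lists differed by set too. T and B cell markers had 55.1 to 81.0 CPM in the low set and 104 to 193 CPM in the middle metformin libraries, against 72.8 to 152 CPM in controls. Endothelial markers had 237 to 371 CPM and 170 to 195 CPM, against 180 to 256 CPM in controls. The part of hepatocytes or other cell types in the results was not tested.

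The summed level of the 74 genes was lower with metformin, mainly in the low and high sets. Levels are given as CPM, read counts scaled to library size with TMM factors, and since CPM are not per length they are not ranked between genes. The sum was 2752, 3052 and 3112 CPM in metformin 1, 3 and 4, 1705 and 1740 CPM in metformin 2 and 5, and 2252, 1948, 1787, 1984 and 1669 CPM in metformin 6 to 10, against 3242, 3204, 2897, 4189 and 3397 CPM in controls 1 to 5. All 7 libraries of the low and high sets lay below every control, and 2 of the 3 metformin libraries of the middle set lay inside the control range. Group means were 2200 ± 566 CPM with metformin (SD, n = 10) and 3386 ± 484 CPM in controls (SD, n = 5). Relative to the control mean the sum was 0.878 in the middle metformin libraries, 0.509 in the low set and 0.569 in the high set. In whole tissue, fewer cells of a type and less RNA per cell cannot be told apart.

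**Figure D1:**
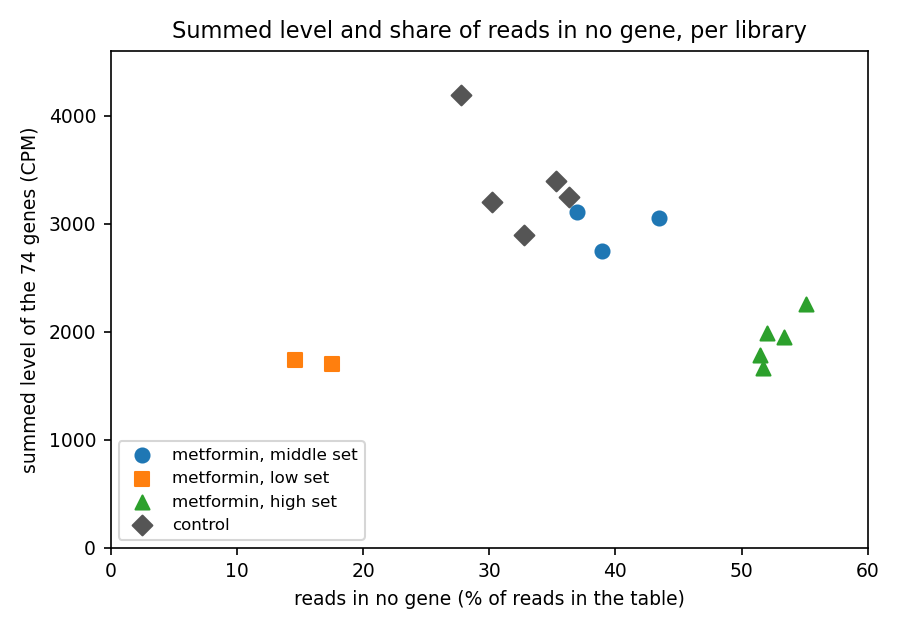
Summed level of the 74 genes (CPM, y axis) against the share of reads in no gene (%, x axis), 1 point per library, with shapes for the 3 metformin sets and the controls. Libraries of the low and the high set lie between 1669 and 2252 CPM, and controls between 2897 and 4189 CPM.

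With all libraries in the fit, 24 of the 74 genes (32.4%) were called lower with metformin and 0 higher, by edgeR's quasi-likelihood test at a Benjamini-Hochberg adjusted p under 0.05. Of all 14432 genes tested, 5.73% were called lower and 12.5% higher. At an unadjusted p under 0.05, 49 of the 74 were lower and 0 higher. The share of all genes at this unadjusted threshold in this fit is not given, so the count of 49 cannot be set against it. The share given below is from the set-adjusted fit and is no measure for it. DESeq2 called 27 of the 74 lower and 0 higher, against 1250 and 3034 of all 14432 genes. Their median log2 fold change was -0.70, against 0.032 for all genes tested, and 69 of the 74 had a negative value. The 24 called genes had log2 fold changes between -1.12 and -0.58, and each lay below every control in 7 to 10 of the 10 metformin libraries. MRPS9 was the 1 gene among the 74 with all metformin libraries below all controls, a pattern in 1.05% of all genes tested. In 0 of the 74 were all metformin libraries above all controls, against 0.651% of all genes tested.

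Set-adjusted, edgeR, DESeq2 and limma voom each called 0 of the 74 genes lower and 0 higher. With edgeR 0.00693% of all genes were called lower and 0.0277% higher. DESeq2 called 89 of all 14432 genes lower and 172 higher, and limma voom 12 and 59. The edgeR median of the 74 genes was -0.18, against -0.029 for all genes tested. Of the 74 genes 57 were negative, against 7763 of the 14432 genes tested. The smallest adjusted p among the 74 was 0.189 by edgeR. At an unadjusted p under 0.05, 12 genes (16.2%) were lower and 0 higher, against 5.89% and 5.74% of all genes tested. Without control 4 the median was -0.072, and the 12 became 5 without control 4, 5 without metformin 1, 3 without metformin 3, and 8 to 16 without any of the others. With the 8 libraries of the middle set alone the median was -0.16, against -0.013 for all genes tested. In that fit 8 of the 74 genes were lower at an unadjusted p under 0.05, and the share of all genes at this threshold is not given. There edgeR called 0 of the 74, with 0.00734% of all genes called lower and 0% higher.

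The count of 24 moved with single libraries. It was 9, 0, 6, 1 and 0 without controls 1, 2, 3, 4 and 5. It was 51 without metformin 3, 39 without metformin 4, 15 without metformin 5, and 14, 9, 7, 11 and 12 without metformin 6, 7, 8, 9 and 10. Calls over all genes tested moved in the same fits. The share called lower was 2.30%, 0.0274%, 1.24%, 0.267% and 0% without controls 1 to 5, 15.9% without metformin 3, 10.9% without metformin 4, 3.54% without metformin 5, and 3.22%, 2.36%, 2.11%, 3.06% and 3.30% without metformin 6 to 10. The median with all libraries stayed between -0.78 and -0.59 when each library was left out in turn.

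**Figure D2:**
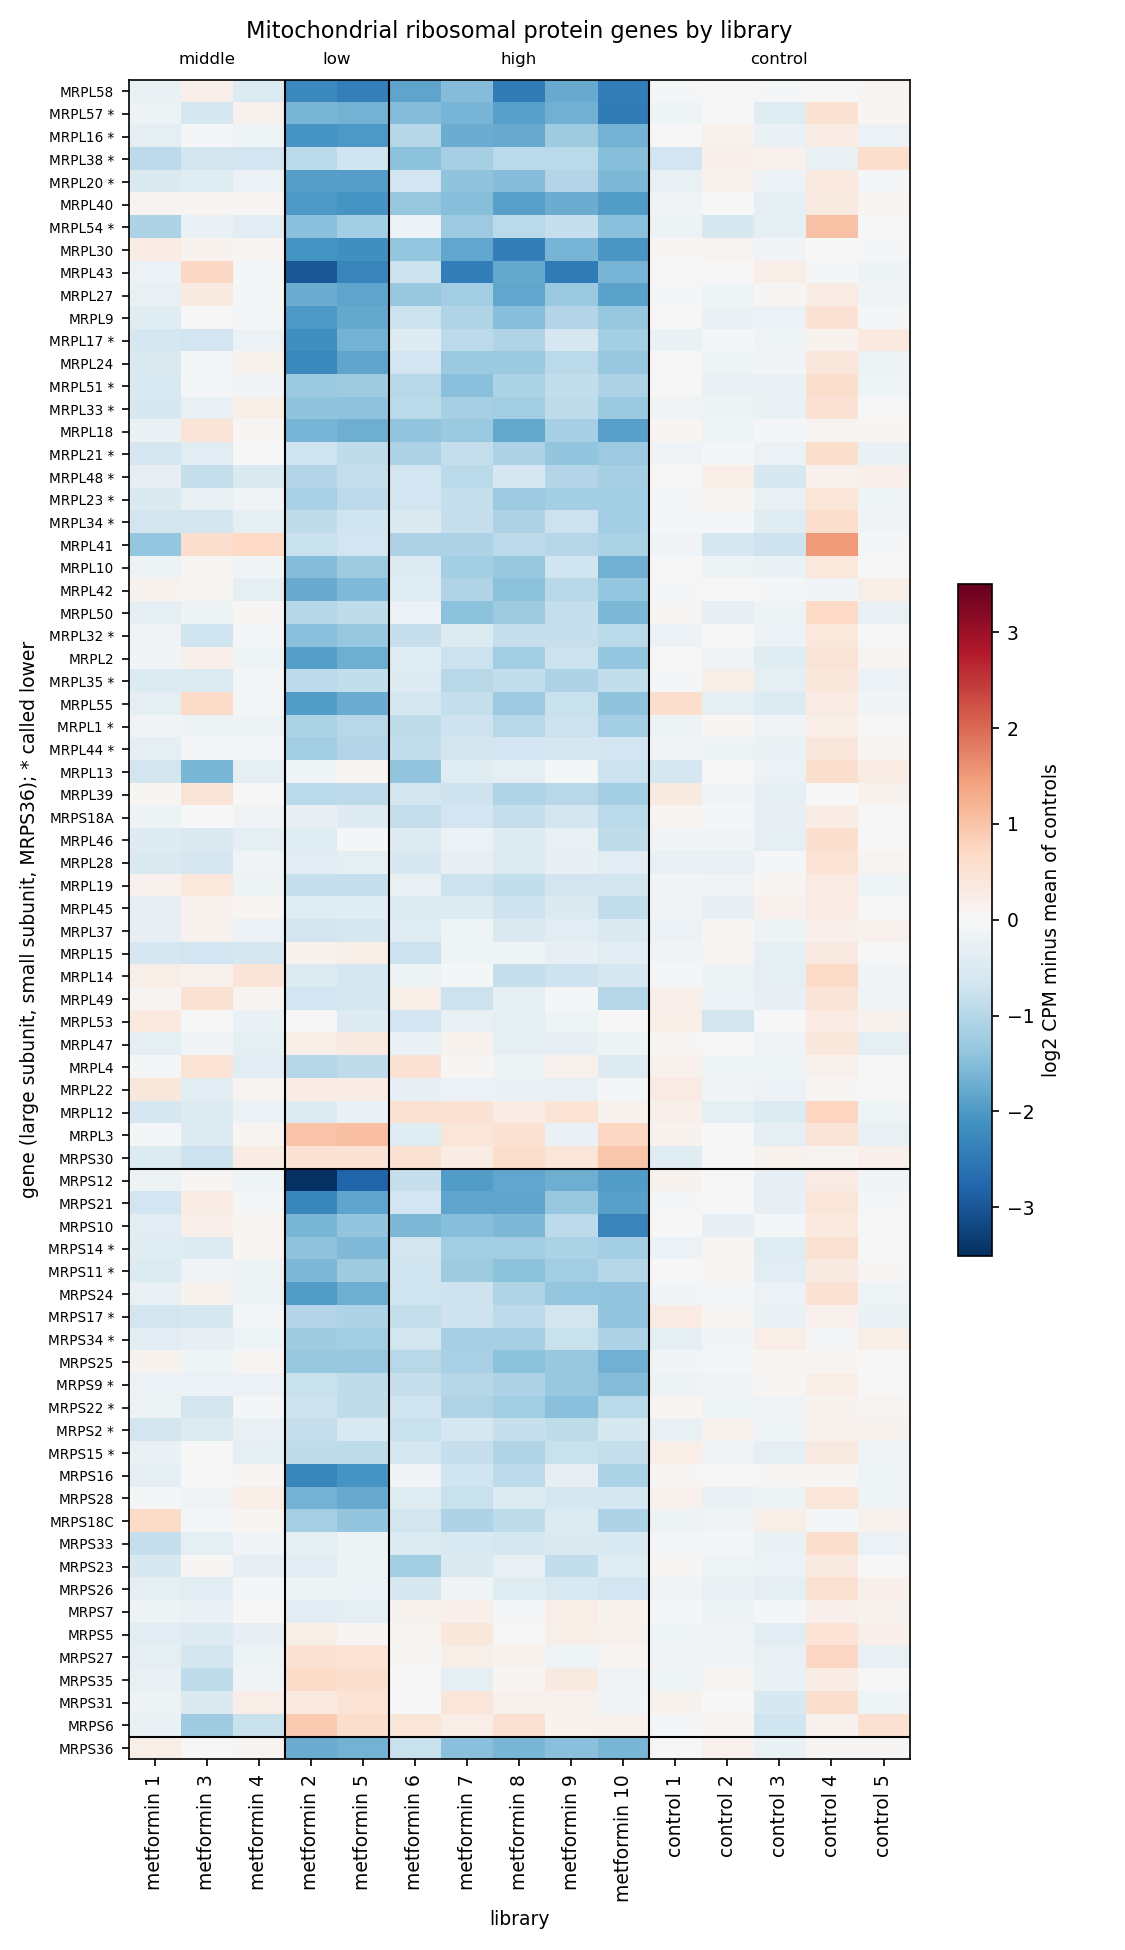
Log2 CPM of each gene (rows: large subunit, small subunit and MRPS36 from the top, asterisk for a gene called lower with all libraries in the fit) minus its mean in controls, for each library (columns). Metformin libraries of the middle, low and high set stand left of the controls. Of the 74 genes 36 are lower by more than 1 in the low set and 30 in the high set. Of all genes tested, 25.4% and 18.3% are.

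By set, the mean log2 CPM was below the control mean for 58 of the 74 genes in the middle metformin libraries. The counts were 64 in the low set and 65 in the high set. Of all genes tested, 53.8%, 53% and 50.4% were below the control mean in the same sets. The mean log2 CPM was lower by more than 1 for 0 of the 74 genes in the middle metformin libraries. The low set had 36 such genes (48.6%) and the high set 30 (40.5%). Of all genes tested, 4.13%, 25.4% and 18.3% were lower by more than 1 in the same sets. In both the low and the high set 24 genes were lower by more than 1, MRPL16, MRPL40, MRPS12 and MRPS25 among them. In the middle metformin libraries these differed from controls by -0.38 to 0.15, with a median of -0.12. The share of all genes lower by more than 1 in both sets was not computed.

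Among the 48 large-subunit genes 16 were called lower (33.3%) and 0 higher. Their median log2 fold change was -0.71 and, set-adjusted, -0.16. The 29 with a relative in bacterial ribosomes had a median of -0.70 and 10 calls. The 19 with no counterpart there had -0.72 and 6 calls. MRPL38, which belongs to the central protuberance at the crown of the large subunit, had 28.0, 33.8 and 33.6 CPM in metformin 1, 3 and 4, 27.6 and 32.5 CPM in metformin 2 and 5, and 19.6, 23.8, 27.7, 27.5 and 18.9 CPM in metformin 6 to 10, against 33.1, 60.5, 58.8, 44.1 and 80.6 CPM in controls. The groups overlapped only through metformin 3 and 4 and control 1, and all 3 metformin sets were lower than the control mean. The log2 fold change was -1.02 ± 0.20 (SE, edgeR adjusted p = 0.0180), and set-adjusted -0.80 ± 0.24 (adjusted p = 0.196).

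MRPL48, also of the central protuberance, had 41.0, 28.0 and 35.6 CPM in metformin 1, 3 and 4 and 22.6 to 33.5 CPM in the low and high sets, against 50.0, 59.1, 33.9, 55.8 and 57.2 CPM in controls. Control 3 was the only control inside the range of the metformin libraries. The difference was -0.79 ± 0.17 on the log2 scale (SE, edgeR adjusted p = 0.0215), and -0.55 ± 0.20 set-adjusted. MRPL34, the relative of bacterial L34, had a lowest, median and highest value of 25.9, 35.8 and 47.0 CPM with metformin, against 56.9, 56.7, 44.5, 90.8 and 55.5 CPM in controls. Metformin 4 was the only metformin library above a control. MRPL34 had a log2 fold change of -0.78 (edgeR adjusted p = 0.0225), and -0.58 set-adjusted.

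Other called genes differed far less in the middle set. MRPL57, a protein found only in mitochondria, had 54.3, 39.7 and 67.4 CPM in metformin 1, 3 and 4, 20.3 and 19.3 CPM in the low set and 11.2 to 21.5 CPM in the high set, against 45.0 to 88.8 CPM in controls. MRPL16, which in bacteria helps to shape the peptidyl transferase site, had 62.5, 74.4 and 70.0 CPM in metformin 1, 3 and 4, 18.7 and 19.4 CPM in the low set and 23.1 to 39.1 CPM in the high set, against 66.7 to 92.8 CPM in controls. Both sat within or next to the control range in metformin 1, 3 and 4 and below it in all 7 other metformin libraries. MRPL57 had a log2 fold change of -1.12 (edgeR adjusted p = 0.0439), and -0.22 set-adjusted. MRPL16 had -1.02 (edgeR adjusted p = 0.0438), and -0.19 set-adjusted. These genes, and MRPS9, MRPS11, MRPS25, MRPS36, MRPL13, MRPL15, MRPL40, MRPL41, MRPL46, MTIF2, LRPPRC, PTCD3 and GADD45GIP1, were chosen after their values were seen.

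MRPL35 and MRPL23, relatives of bacterial L35 and of L23 at the exit of the peptide tunnel, were called lower, with log2 fold changes of -0.70 (edgeR adjusted p = 0.0282) and -0.78 (adjusted p = 0.0282), and set-adjusted values of -0.35 and -0.31. MRPL44, which resembles RNase III and in which human mutations cause a cardiomyopathy, had 21.8, 31.8 and 49.5 CPM as its lowest, median and highest metformin values, against 47.4, 44.8, 43.0, 66.2 and 54.0 CPM in controls. It was the called gene closest to the threshold, at -0.58 ± 0.20 (SE, edgeR adjusted p = 0.0486), and -0.15 set-adjusted.

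MRPL58 encodes a peptidyl-tRNA hydrolase, known from human cells to free stalled chains, that is built into the large subunit. It had 32.0, 42.9 and 26.8 CPM in metformin 1, 3 and 4, but 7.85 and 7.11 CPM in the low set and 6.82 to 13.0 CPM in the high set, against 36.6, 37.3, 35.7, 38.3 and 40.4 CPM in controls. The coefficient of variation across controls was 4.79%, and the 7 libraries of the low and high sets stood apart from all others. At -1.19 ± 0.42 its log2 fold change was the most negative of the 74 genes, yet not called (SE, edgeR adjusted p = 0.0545), and set-adjusted it was -0.15.

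Some large-subunit genes did not share this pattern. MRPL12, part of the stalk that binds translation factors and in human cells also a partner of the mitochondrial RNA polymerase, had 28.8, 31.5 and 37.5 CPM in metformin 1, 3 and 4, 31.5 and 37.2 CPM in the low set and 47.8 to 63.1 CPM in the high set, against 49.0, 35.1, 31.3, 74.0 and 39.4 CPM in controls. The high set lay above the other metformin libraries and inside the control range. The log2 fold change was -0.019 ± 0.25 (SE, edgeR adjusted p = 0.962), with a sign that turned under other scaling (0.025 with RLE factors), and -0.49 set-adjusted.

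MRPL3, in which human mutations cause a respiratory chain deficiency, had 20.9, 15.8 and 22.5 CPM in metformin 1, 3 and 4, 42.7 and 44.2 CPM in the low set and 16.1 to 35.3 CPM in the high set, against 23.5, 21.5, 17.0, 29.4 and 18.0 CPM in controls. The low set was above every control. MRPS30, of the large subunit in spite of its symbol, had 5.33, 4.44 and 8.93 CPM in metformin 1, 3 and 4 and 8.88 to 14.5 CPM in the low and high sets, against 5.55 to 8.41 CPM in controls. Every library of the low and high sets was above every control for MRPS30. Log2 fold changes were 0.33 for MRPL3 (edgeR adjusted p = 0.360) and 0.34 for MRPS30 (adjusted p = 0.308), and set-adjusted -0.15 and -0.26. MRPS18A, the other such gene, had -0.48 (edgeR adjusted p = 0.0602) and -0.12 set-adjusted.

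Small-subunit genes gave 8 calls lower (32.0%) and 0 higher among 25. Their median log2 fold change was -0.62 and, set-adjusted, -0.26. The 16 with a relative in bacterial ribosomes had a median of -0.69 and 6 calls. The 9 with no counterpart there had -0.44 and 2 calls. In the low set the median differences of these groups from controls were -1.34 and -0.26 on the log2 scale, and in the high set -0.86 and -0.53. Whether the groups differ was not tested.

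MRPS2, relative of bacterial S2, had 25.1, 28.0 and 32.2 CPM in metformin 1, 3 and 4, 22.4 and 26.7 CPM in the low set and 20.9 to 26.2 CPM in the high set, against 32.2, 43.3, 34.8, 43.0 and 42.2 CPM in controls. Of the metformin libraries 9 lay below every control, and metformin 4 was level with control 1. MRPS2 had a log2 fold change of -0.64 ± 0.13 (SE, edgeR adjusted p = 0.0214), and -0.46 ± 0.16 set-adjusted (adjusted p = 0.271). MRPS17, relative of bacterial S17, had 42.2, 43.1 and 63.1 CPM in metformin 1, 3 and 4, 32.3 and 31.3 CPM in the low set and 25.6 to 42.4 CPM in the high set, against 80.8, 68.2, 55.9, 72.9 and 56.9 CPM in controls. Metformin 4 was the only metformin library above a control. The log2 fold change of MRPS17 was -0.77 (edgeR adjusted p = 0.0244), with -0.44 set-adjusted.

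MRPS9, relative of bacterial S9, was the gene whose groups did not overlap, at 37.7, 38.2 and 38.0 CPM in metformin 1, 3 and 4, 25.4 and 23.5 CPM in the low set and 15.3 to 25.1 CPM in the high set, against 38.9, 40.6, 45.0, 51.8 and 43.3 CPM in controls. The gap between metformin 3 and control 1 was under 1 CPM. MRPS9 had a log2 fold change of -0.74 (edgeR adjusted p = 0.0336), and -0.21 set-adjusted. MRPS34 and MRPS22, both found only in mitochondria and both known from human mitochondrial disease, were called lower too. They had -0.77 (edgeR adjusted p = 0.0289) and -0.74 (adjusted p = 0.0293), and set-adjusted -0.28 and -0.28.

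MRPS12, the decoding-site protein whose bacterial relative is altered in streptomycin resistance, had 60.6, 69.5 and 61.5 CPM in metformin 1, 3 and 4, 5.99 and 9.68 CPM in the low set and 17.4 to 39.0 CPM in the high set, against 73.8, 67.1, 55.5, 83.3 and 63.7 CPM in controls. Metformin 1, 3 and 4 lay inside the control range. In the low set its mean log2 CPM minus that of controls was -3.14, the lowest of the 74 genes. MRPS16, in which a human mutation causes a fatal respiratory chain deficiency, had 22.9 and 26.9 CPM in the low set but 52.3 to 105 CPM in the high set, against 102 to 117 CPM in controls. Neither was called, with log2 fold changes of -1.10 (edgeR adjusted p = 0.0928) and -0.60 (adjusted p = 0.174), and set-adjusted -0.11 and -0.095.

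MRPS5, MRPS6, MRPS27 and MRPS31 of the small subunit were not below the control mean in the low and high sets. MRPS6, relative of bacterial S6, had 109.7, 55.1 and 75.2 CPM in metformin 1, 3 and 4, 245 and 199.6 CPM in the low set and 141 to 188 CPM in the high set, against 123, 138, 80.2, 145 and 186 CPM in controls. The low set was above every control, and metformin 3 and 4 were below every control. MRPS6 had a log2 fold change of 0.14 ± 0.30 (SE, edgeR adjusted p = 0.742), and set-adjusted -0.75 ± 0.26 (adjusted p = 0.260). MRPS6 lies next to SLC5A3, an inositol transporter gene, in the RefSeq annotation of GRCg7b, and in human these genes overlap. SLC5A3 averaged 91.4 ± 42.0 CPM with metformin (SD, n = 10) and 48.1 ± 16.1 CPM in controls (SD, n = 5). Its mean log2 CPM was above controls by 1.54 in the low set and 1.09 in the high set, and differed by -0.14 in the middle metformin libraries. Its log2 fold change was 0.93, not called (edgeR adjusted p = 0.0724), and -0.074 set-adjusted. The division of reads between MRPS6 and SLC5A3 is uncertain. MRPS11 and MRPL46 were the only neighbouring pair found among the 72 of the 74 genes matched by symbol in that annotation. Their log2 fold changes were -0.84, called, and -0.42, not called (edgeR adjusted p = 0.0322 and 0.0719). Set-adjusted, MRPS11 had -0.26 and MRPL46 -0.45.

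MRPS31 and MRPS35, found only in mitochondria, had log2 fold changes of 0.082 and 0.043, and -0.17 and -0.39 set-adjusted. MRPS7, of the small subunit's head, had 51.1, 63.9 and 76.8 CPM as its lowest, median and highest metformin values, against 61.8, 57.6, 63.4, 74.5 and 71.2 CPM in controls. The groups of MRPS7 overlapped, but both low-set libraries, at 51.1 and 51.2 CPM, were below every control. The high set had 63.1 to 76.8 CPM. The log2 fold change of MRPS7, -0.046 (edgeR adjusted p = 0.827), turned to 0.073 with limma voom. MRPS18C, of the small subunit with a bacterial S18 relative, had -0.47 (edgeR adjusted p = 0.239) and 0.25 set-adjusted. Its mean log2 CPM differed from controls by -1.27 in the low set and -0.83 in the high set. In all, 6 genes (MRPL3, MRPS5, MRPS6, MRPS27, MRPS30 and MRPS31) were above the control mean in both the low and the high set, and 6 of these 6 were below it in the middle metformin libraries. The shares of all genes with these patterns were not computed. MRPS36, of the oxoglutarate dehydrogenase complex, had a log2 fold change of -0.79 (edgeR adjusted p = 0.105) and 0.10 set-adjusted.

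**Figure D3:**
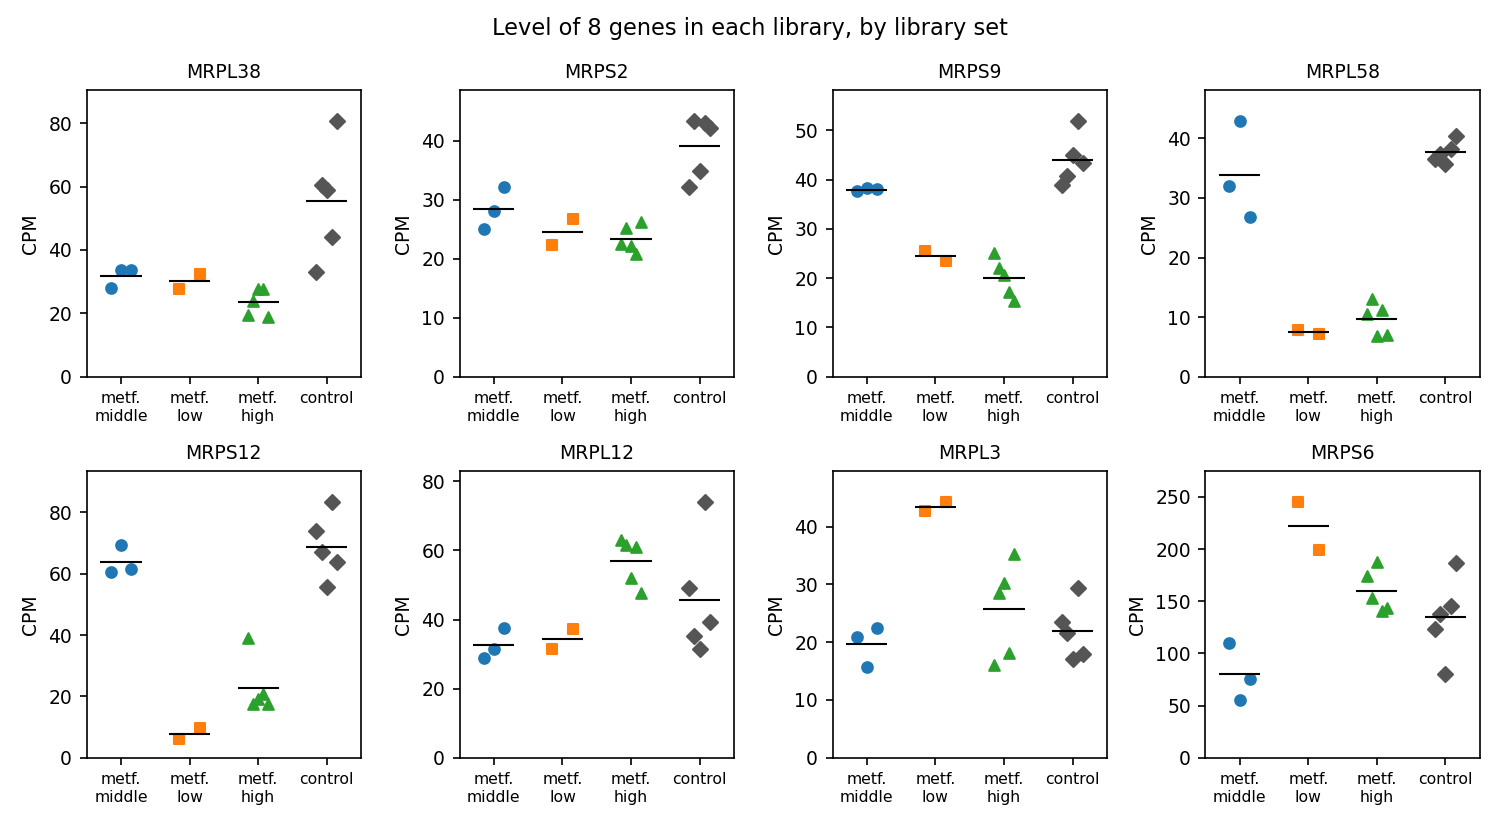
Level (CPM, y axis from 0) of 8 genes in each library, by metformin set and control (x axis), 1 point per library with the mean as a line. MRPL38, MRPS2 and MRPS9 have lower means in all 3 metformin sets, MRPL58 and MRPS12 mainly in the low and high sets, and the low set of MRPL3 and MRPS6 lies above every control.

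The 12 genes at an unadjusted p under 0.05 in the set-adjusted fit were MRPL15, MRPL38, MRPS6, MRPS2, MRPL48, MRPL34, MRPL13, MRPL17, MRPL28, MRPS17, MRPS5 and MRPL46. Of them 6 were also among the 24 called with all libraries. MRPL15, relative of bacterial L15, had 10.4, 9.97 and 10.5 CPM in metformin 1, 3 and 4, 17.1 and 18.3 CPM in the low set and 9.34 to 14.3 CPM in the high set, against 14.6, 16.8, 12.6, 19.5 and 16.0 CPM in controls. Metformin 1, 3 and 4 were below every control while the low set was inside the control range. Its set-adjusted difference was -0.63 ± 0.19 on the log2 scale (SE, edgeR adjusted p = 0.189), and without the adjustment -0.30 (adjusted p = 0.231). MRPL13, relative of bacterial L13, had -0.82 ± 0.32 set-adjusted (SE, edgeR adjusted p = 0.319) and -0.53 without the adjustment. With each library left out in turn, 1 gene was called set-adjusted, MRPL38 without control 1 (edgeR adjusted p = 0.0392).

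**Figure D4:**
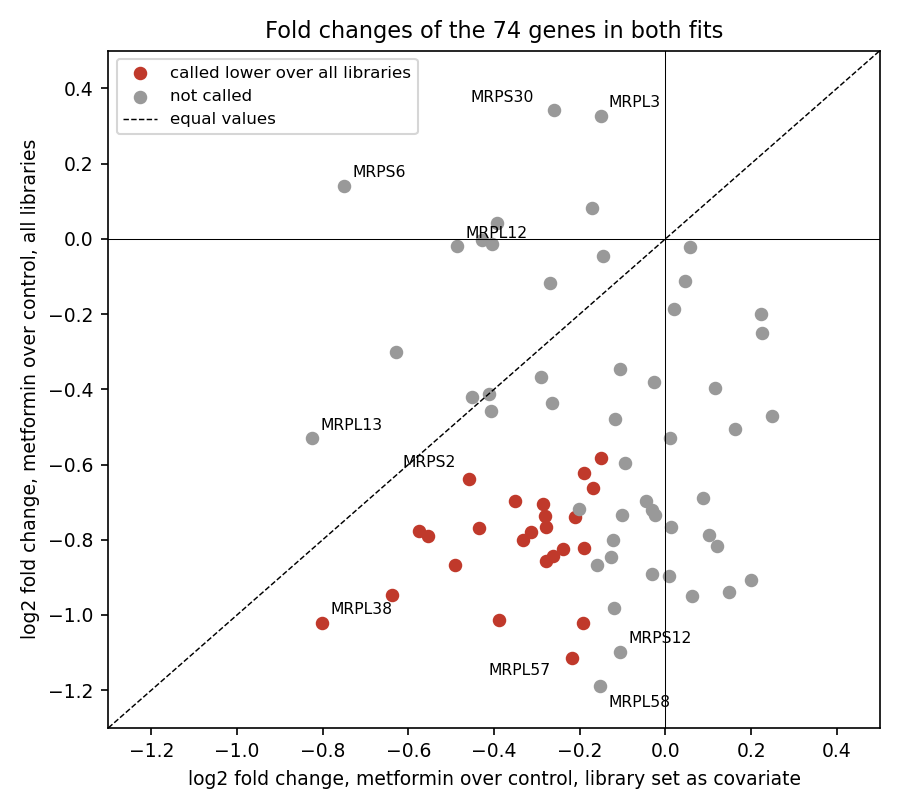
Log2 fold change of metformin over control with all libraries in the fit (y axis) against the set-adjusted value (x axis) for the 74 genes, with the 24 called genes in red and a dashed line of equal values. Most points lie below the line, and MRPS6, MRPL13 and MRPL12 lie above it.

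Controls themselves varied. The coefficient of variation of the 74 genes across the 5 controls ran from 4.76% for MRPS25 to 77.3% for MRPL41, with a median of 17.5% against 26.2% for all genes tested. Control 4 had 7 of the 74 genes below the control mean, and control 3 had 62. MRPL41, a protein of the large subunit found only in mitochondria, had 6.66, 25.5 and 27.6 CPM in metformin 1, 3 and 4 and 7.88 to 10.6 CPM in the low and high sets, against 15.6, 11.2, 10.2, 47.9 and 16.5 CPM in controls. Control 4 was highest of all libraries for MRPL41. The fewest reads of any of the 74 genes in a library were 50, for MRPS10 in metformin 10.

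Mitochondrial ribosomal proteins with other symbols gave 0 calls by edgeR among 5 tested, with 3 lower and 0 higher at an unadjusted p under 0.05. For this unadjusted threshold the share of all genes is not given. DAP3, AURKAIP1 and CHCHD1, all of the small subunit, had log2 fold changes of -0.74, -0.77 and -0.89 (edgeR adjusted p = 0.0646, 0.0652 and 0.119), with -0.011, -0.060 and 0.14 set-adjusted. The others, PTCD3 and GADD45GIP1, had 0.24 and 0.025 (edgeR adjusted p = 0.273 and 0.966), and -0.088 and -0.42 set-adjusted. The mean log2 CPM of GADD45GIP1 differed from controls by -1.68 in the low set and 0.54 in the high set. Of 13 tested translation factors 2 were called lower (15.4%) and 0 higher, against 5.73% and 12.5% of all genes tested. In this list 7 values were negative, with a median of -0.16. MTIF2 and LRPPRC had 0.62 and 0.60 (edgeR adjusted p = 0.0705 and 0.0779), and 0.083 and 0.027 set-adjusted. MTRF1, a release factor, had 20.2 ± 2.98 CPM with metformin (SD, n = 10) and 32.7 ± 3.78 CPM in controls (SD, n = 5), with all metformin libraries below all controls. MTRF1 had a log2 fold change of -0.70 (edgeR adjusted p = 0.0180), and -0.49 set-adjusted. MTIF3, an initiation factor, had -0.76 (edgeR adjusted p = 0.0424) and -0.11 set-adjusted. SLIRP, which binds mitochondrial mRNA, had -1.25 (edgeR adjusted p = 0.0630), and GFM1, an elongation factor, had -0.16 (adjusted p = 0.444). Set-adjusted, SLIRP had -0.11 and GFM1 -0.10.

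Of 23 tested assembly factors 1 was called lower (4.35%) and 1 higher (4.35%), both below the 5.73% and 12.5% of all genes tested. ERAL1, a chaperone of the small ribosomal RNA, fell, at -0.52 (edgeR adjusted p = 0.0476), and had -0.099 set-adjusted. YBEY, an endoribonuclease, was called higher with 0 to 57 reads in metformin libraries and 0 reads in all controls. Metformin 1, 3 and 4 had 0, 0 and 3 reads, the low set 57 and 54, and the high set 2 to 20. Set-adjusted, YBEY had a log2 fold change of 3.24 and was not called (edgeR adjusted p = 0.461). MTERF3, which in mouse acts in mitochondrial ribosome assembly, had -0.53 (edgeR adjusted p = 0.0557). Of 18 genes of the mitochondrial aminoacyl-tRNA synthetase list, whose products charge tRNAs, 4 were called lower (22.2%), against 5.73% of all genes tested. The count called higher in that list is not reported here. MARS2 and CARS2 fell, at -0.70 (edgeR adjusted p = 0.0243) and -0.74 (adjusted p = 0.0348). Set-adjusted, MARS2 had -0.48 and CARS2 -0.16.

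Of 10 tested mitochondrial transcription and RNA processing genes, edgeR called 0 lower and 3 higher (30%), against 5.73% and 12.5% of all genes tested. At an unadjusted p under 0.05, 0 of the 10 were lower, and the share of all genes at that threshold is not given. The 3 called higher were PNPT1 (1.36), PDE12 (0.64) and HSD17B10 (5.57, on the log2 scale). PNPT1 degrades RNA and PDE12 trims its tails. Set-adjusted, PNPT1 had -0.29, PDE12 0.53 and HSD17B10 1.08. HSD17B10, a subunit of mitochondrial RNase P, had 721 to 1279 reads in each high-set library and 7 to 40 in the other metformin libraries, against 9 to 32 in controls. TFAM and POLRMT, which act in transcription of mitochondrial DNA, had -0.16 and -0.14 (edgeR adjusted p = 0.461 and 0.477), and -0.32 and 0.019 set-adjusted. Of the cytosolic ribosomal protein genes 40 of 68 (58.8%) were called lower, with a median of -1.11 and, set-adjusted, -0.26. Complex I subunit genes (NDUF symbols) had 8 of 33 called lower (24.2%), with -0.77 and, set-adjusted, -0.21. No difference between these lists and the mitochondrial ribosomal protein genes was tested.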

How the data were processed

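The authors deposited a table of raw counts of reads per gene. The submitters' processing notes name FastQC 0.12.0, HTSeq 0.12.3, STAR 2.7.11b and Trim Galore 0.6.4, and the builds GRCg6a and galGal6, names of a single assembly. The sources used here do not give the strand setting. Per the labels' protocols, stranded mRNA libraries were made from 200 ng of RNA. The table ends with 5 lines for reads outside the gene counts, of which reads in no gene were 14.6% to 55.1%, and these were not used in library sizes or tests.

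The comparison of metformin with control used R 4.3.3 and edgeR 4.0.16 with TMM factors, the default filter on low counts and Benjamini-Hochberg adjustment across all genes tested. Library sets were split at gaps of over 5 percentage points in the share of reads in no gene. Differences by set are of mean log2 CPM with a prior count of 2. The SE of an edgeR log2 fold change is its absolute value divided by the square root of the F statistic of the quasi-likelihood test. The members, gene lists, sets and tests were chosen with earlier results of these data known. The rule for named genes took up to 8 of the 74 genes with the smallest p in each direction, and 12 by name. MRPS2, MRPL3 and MRPS30 were taken by both. The rule also took the 3 with the smallest p in each other list, and GFM1, TFAM and POLRMT. A part of the rule based on level per coding length, and a planned description of promoters, were not run for want of lengths and sequences. Alternatives were RLE factors, other filters, DESeq2 1.42.0, limma 3.58.1 voom with quality weights, a replicate block, other sets of libraries and each library left out. Calculations were tested on simulated counts. By symbol, 72 of the 74 genes matched RefSeq (GRCg7b), used for names and neighbours. No pair of libraries agreed within sampling noise, with 90.6 as the lowest chi-square per degree of freedom. MRPL11, MRPS18B, TUFM and transcripts of mitochondrial DNA are not analysed here. Of the genes that the naming rule takes from the aminoacyl-tRNA synthetase list, 1 is not reported here.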

Additional observations from a re-analysis of the deposited data

Results flagged for a closer look

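The 82 sets of values were those of 40 named genes and the summed level, in each of the 2 groups. YBEY in controls, with 0 reads throughout, was skipped. Of the rest 7 had a single library far from the others by Dixon's criterion. Chance alone gives about 1 in 20 for values from a single population, and the metformin group holds 3 library sets. Metformin 4 stood high for MRPS17, at 63.1 CPM with the next at 43.1 CPM, for MRPL35, at 47.4 CPM with the next at 36.1 CPM, and for MTRF1, at 26.6 CPM with the next at 22.1 CPM. Control 4 stood high for MRPL34, at 90.8 CPM with the next at 56.9 CPM, and for TFAM, at 32.3 CPM with the next at 22.2 CPM. Control 1 stood high for PDE12, at 7.57 CPM with the next at 5.60 CPM, and control 3 for PNPT1, at 8.42 CPM with the next at 4.93 CPM.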

How the results depend on the processing

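The 24 calls lower with all libraries became 55 with limma voom and 9 without the low set, and 0 without the high set, in the middle set only, with the set as a covariate and with the replicate block. Of all genes, 27.7% were called lower with limma voom, 2.60% without the low set, 0% without the high set and 0% with the replicate block. Every library of the high set has a replicate number that no control has. With the replicate block the metformin term therefore rests on the middle and low metformin libraries against same-numbered controls. That fit thus also leaves the high set out of the comparison, and the effect of the block alone was not tested. With the replicate block 21 of the 74 genes were lower at an unadjusted p under 0.05, by edgeR. The share of all genes at that threshold is not given. Leaving out 1 library gave 0 to 51 calls. The median of -0.70 became -0.41 without the high set, -0.16 in the middle set and -0.18 with the set as covariate, and -0.78 to -0.59 with 1 library left out. Calls higher were 0 in each of these fits. Set-adjusted calls lower were 0, with 0 to 1 when a library was left out, and their median was -0.23 to -0.072. With block and set together, calls were 0 and the median -0.23. Deviations of same-numbered libraries from their group means correlated at -0.040 to 0.0687, and 2 of 5 controls and 1 of 5 metformin libraries correlated best with their own number. Deviations of the metformin libraries include the differences between sets, which controls lack. The correlations therefore cannot show whether replicate numbers pair the libraries.

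Signs of single genes turned as follows, and the cause was not tested. With the set as covariate, and in the middle set, MRPS30 had -0.26 and -0.24, MRPL3 -0.15 and -0.13, MRPS6 -0.75 and -0.73, MRPS31 -0.17 and -0.15, MRPS35 -0.39 and -0.37, MRPS18C 0.25 and 0.27, CHCHD1 0.14 and 0.16, PNPT1 -0.29 and -0.27, POLRMT 0.019 and 0.039, and DAP3 had 0.010 in the middle set. MRPL12 had 0.025 with RLE factors, 0.024 with DESeq2, 0.32 with voom and 0.085 without the low set, and MRPS7 had 0.073 with voom and 0.042 without the low set. Without the low set MRPS6 had -0.034 and MRPS35 -0.12, and without the high set GFM1 had 0.066 and POLRMT 0.086. With the replicate block MRPS6 had -0.15, MRPS35 -0.0052, HSD17B10 -0.047 and POLRMT 0.034. Set-adjusted, DAP3 had 0.0091, 0.0023 and 0.0081 with RLE factors, the CPM filter and DESeq2, and POLRMT -0.0015 and -0.027 with no filter and voom. With 1 library left out, ranges that crossed 0 with all libraries in the fit were -0.13 to 0.22 for MRPL12, -0.039 to 0.25 for MRPS31, -0.014 to 0.13 for MRPS35, -0.00086 to 0.29 for MRPS6 and -0.094 to 0.011 for MRPS7. Set-adjusted they were -0.24 to 0.054 for AURKAIP1, -0.091 to 0.049 for DAP3, -0.16 to 0.014 for MRPS16, -0.0061 to 0.39 for MRPS18C and -0.072 to 0.076 for POLRMT, and YBEY had 0 to 3.72.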
